A study of Mus musculus with 9 samples.

Results

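Matrix metalloproteinases (MMPs) and their inhibitors are described here in myeloid cells of the injured mouse liver through 9 of 45777 genes. The 9 genes were chosen by name with earlier results of these data known, so counts among them are descriptions and not a test. They are the MMP genes Mmp12, Mmp13, Mmp14, Mmp19 and Mmp2, the tissue inhibitors of metalloproteinases (TIMPs) Timp1, Timp2 and Timp3, and Adam8, which encodes a membrane protease of the related ADAM family. RNA was sequenced from CD11b+ cells, which are mainly monocytes, macrophages and neutrophils, isolated from the livers of 9 mouse samples given acetaminophen (APAP) into the peritoneum. An overdose of APAP kills hepatocytes and is a standard model of acute liver failure. The 9 samples form 3 groups of 3, all exposed to APAP and all collected 48 hours after it. The PBS group received buffer alone, the HEK-EV group received SIRP-EVs made by HEK cells (an embryonic kidney line of human origin), and the MSC-EV group received SIRP-EVs derived from MSC. EVs are extracellular vesicles, here injected into a vein 8 hours after APAP, and MSC is read as mesenchymal stem or stromal cells. The labels do not spell out SIRP, and no uninjured liver and no group with vesicles lacking SIRP was analysed here. Strain, sex, age and the number of animals behind a sample are not given in the sources used here, so p-values measure the spread between these samples.

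MMPs are zinc-dependent enzymes that cut collagen, elastin and other matrix proteins, and most are secreted as inactive precursors. TIMPs bind the active site of MMPs and block it. In the injured liver, macrophages are a known source of MMPs that clear matrix and dead tissue during repair, whereas stellate and endothelial cells are known sources of TIMPs and of Mmp2. Membrane-bound Mmp14 activates the precursor of Mmp2 on the cell surface, and Timp2 serves as the bridge between both proteins at low amounts and as an inhibitor at high amounts.

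Relative sequencing depth was read as the most common ratio of coverage to FPKM. It was 5.28 to 6.32 in PBS, 6.25 to 6.47 in HEK-EV and 6.58 to 6.84 in MSC-EV, where every sample was deeper by this measure than in the other groups. Only 35.9% to 36.7% of the genes with FPKM over 1 lay within 1% of their sample's value. Levels in this report are TPM, and no read counts were used, so no counting error is attached to a value. Myeloid markers were high in every sample, with 8 genes summing to between 22350 and 28080 TPM, and none of the 8 was at 0. Most of that sum was Lyz2 (13330 to 18740 TPM). Itgam, which encodes CD11b itself, was at 289 to 377 TPM in PBS, 339 to 434 TPM in HEK-EV and 196 to 255 TPM in MSC-EV. Its log2 fold change with MSC vesicles was -0.53 against PBS (limma, adjusted p = 0.0553) and -0.70 against HEK-EV (adjusted p = 0.0257). Ptprc, the pan-leukocyte marker CD45, was lower with MSC vesicles than in both other groups (-0.46 and -0.53, adjusted p = 0.0271 and 0.0207). Cd68, a macrophage lysosomal protein of the same list, had the opposite sign, at 2366 to 2522 TPM in MSC-EV, 1809 to 2204 TPM in PBS and 1906 to 2000 TPM in HEK-EV (0.32 and 0.33, adjusted p = 0.0513 and 0.0443). The other 5 myeloid genes did not pass in either comparison. The part of these shifts in the results that follow was not tested. Transcripts of pancreatic acinar cells, which are not liver cells, set 4 libraries apart: the median of 16 acinar genes was 1.63 and 64.0 TPM in HEK-EV replicates 1 and 2 and 7.33 and 182 TPM in MSC-EV replicates 1 and 3, and it was 0 in the other 5 libraries. In bulk RNA, fewer cells of a type and less RNA per cell cannot be told apart.

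Levels are TPM, transcripts scaled to gene length and to a fixed total per sample, and can be compared between genes. Adam8 was the most abundant of the 9 genes in each of the 9 samples, with a median of 232 TPM and a range of 145 to 308 TPM. Mmp12 (median 58.0, range 36.3 to 79.5 TPM), Timp2 (median 52.1, range 35.2 to 91.1 TPM) and Mmp14 (median 42.6, range 28.0 to 61.7 TPM) followed, and their ranges overlapped. Mmp19 (median 12.6 TPM), Timp3 (9.05 TPM) and Mmp13 (9.48 TPM) formed a lower tier of overlapping ranges between 4.90 and 17.6 TPM. Timp1 (range 0.466 to 1.92 TPM) and Mmp2 (range 0.186 to 0.689 TPM) were near or under 1 TPM. The steps from Adam8 to Mmp12, from Mmp14 to Mmp19 and from Mmp13 to Timp1 were the ones where neighbours in this order did not overlap.

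**Figure D1:**
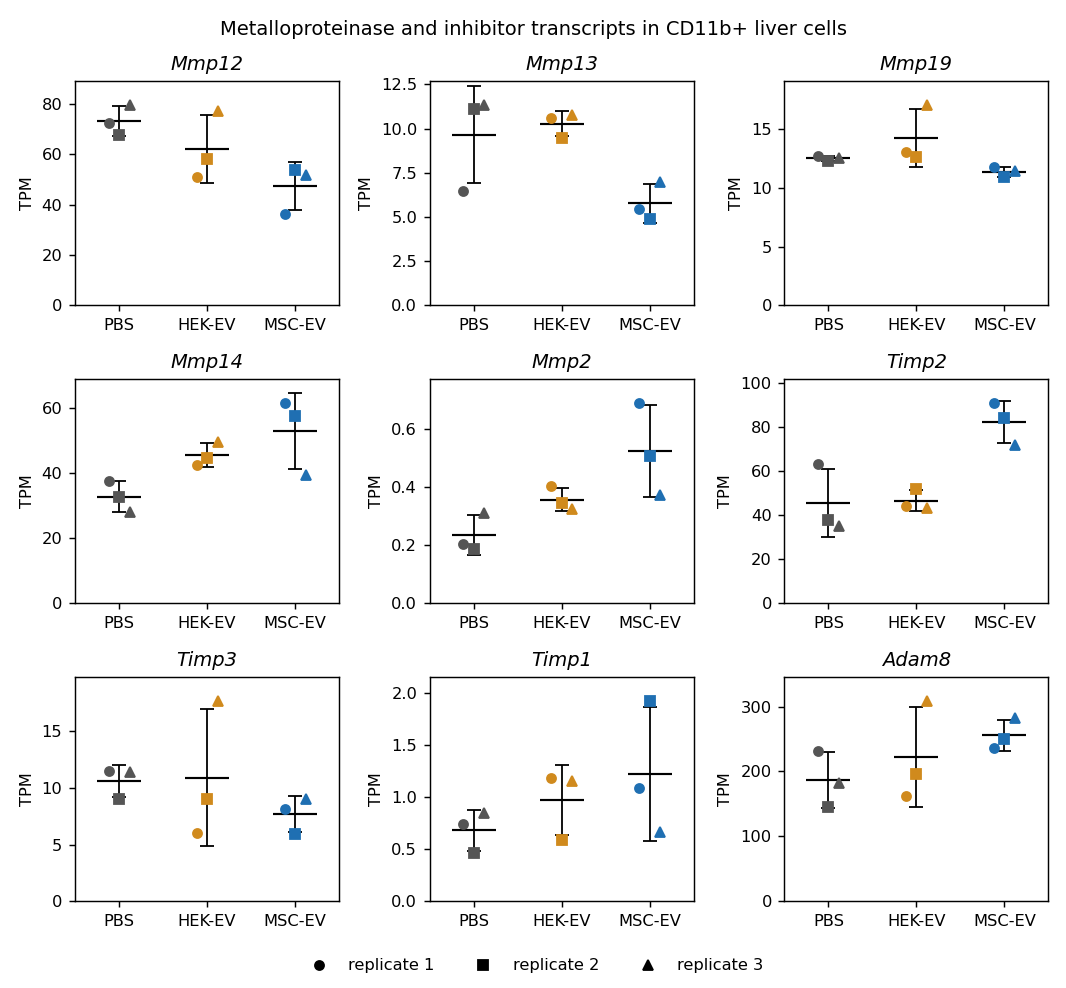
TPM (linear vertical axis from 0) of the 9 genes in each of the 3 groups; points are samples, with shape giving the replicate number, horizontal lines are means and bars are SD (n = 3). The MSC-EV samples lie above all PBS samples for Timp2, Mmp14, Mmp2 and Adam8 and below them for Mmp12 and Mmp19.

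Setting MSC-EV beside PBS addresses what MSC-derived SIRP vesicles changed in CD11b+ cells of the injured liver. Timp2 and Mmp14 rose, and none of the other 6 genes tested passed the threshold. Of 13820 genes tested with limma, 5.11% had an adjusted p under 0.05, 1.86% being higher and 3.25% lower with MSC vesicles, and 23% had an unadjusted p under 0.05, as did 4 of the 8. Of the 9 genes, 8 passed the filter of at least 1 TPM in at least 3 samples, and 2 of these 8 were called, both higher. The median log2 fold change of the 8 was 0.12, beside 0.01 over all genes tested. It was above 0 for 4 of the 8 and for 52.3% of all genes tested. On FPKM the split of calls over all genes was 280 higher of 477, against 257 of 706 here. Log2 fold changes are differences of log2(TPM + 1), which understate the change of low genes.

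Timp2 (chromosome 11, 118301061 to 118355411, minus strand) was at 63.5, 38.0 and 35.2 TPM in PBS replicates 1, 2 and 3. It was at 91.1, 84.5 and 71.9 TPM in the MSC-EV replicates in the same order. All MSC-EV samples exceeded all PBS samples, and PBS replicate 1 stood well above the other PBS samples. Cep295nl, which overlaps Timp2 on the same strand, was at 0.444 to 0.809 TPM. The means were 45.6 ± 15.6 TPM in PBS and 82.5 ± 9.73 TPM in MSC-EV (SD, n = 3 each). The log2 fold change was 0.89 (SE 0.195, 95% interval 0.45 to 1.32, adjusted p = 0.038), a 1.85-fold rise on this scale. Leaving out any 1 sample gave 0.73 to 1.14 (adjusted p from 0.00152 to 0.16), and the call held only without PBS replicate 1. Without the 4 libraries with acinar transcripts, which leaves 1 sample in each vesicle group, it was 0.93 with an adjusted p of 0.383.

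Mmp14 (chromosome 14, 54431598 to 54442456, plus strand) was at 37.6, 32.8 and 28.0 TPM in the PBS samples. It was at 61.7, 57.7 and 39.7 TPM in the MSC-EV samples. Here too the groups did not overlap, but MSC-EV replicate 3 lay close to PBS replicate 1. The means were 32.8 ± 4.80 and 53.0 ± 11.7 TPM. The log2 fold change was 0.66 (SE 0.162, 95% interval 0.30 to 1.02), and its adjusted p of 0.0499 was only just under the threshold. Leaving out 1 sample gave 0.54 to 0.85 (adjusted p from 0.0248 to 0.173), and the call held without PBS replicate 1 or MSC-EV replicate 3. Without the 4 acinar libraries it was 0.81 with an adjusted p of 0.235.

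Mmp2 (chromosome 8, 92827290 to 92853421, plus strand), the gelatinase that Mmp14 and Timp2 jointly activate, was far less abundant. It stood at 0.206, 0.186 and 0.313 TPM in PBS and at 0.689, 0.508 and 0.374 TPM in MSC-EV, again without overlap. It did not reach the filter and was tested only in the fit without one, where its log2 fold change was 0.30 (SE 0.0775, adjusted p = 0.104). Its 3′ end overlaps Gm45472 on the opposite strand, which at 1.32 to 2.02 TPM was above Mmp2 itself. Stellate cell and fibroblast markers (11 genes, none at 0 in all samples) summed to 13 to 23.5 TPM in PBS, 14.5 to 21.5 TPM in HEK-EV and 17.3 to 36.1 TPM in MSC-EV, with the highest sum in MSC-EV replicate 1, the sample with the most Mmp2. Their part in the Mmp2 values was not tested.

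Mmp12, the macrophage elastase (chromosome 9, 7344397 to 7360461, plus strand), had lower values in the MSC-EV group but did not pass. The PBS samples held 72.3, 67.6 and 79.5 TPM and the MSC-EV samples 36.3, 53.9 and 51.7 TPM. The groups did not overlap, yet the log2 fold change of -0.64 (SE 0.175, 95% interval -1.03 to -0.24) had an adjusted p of 0.0676. Without HEK-EV replicate 3 the adjusted p was 0.0489, and the other fits that left out 1 sample did not pass (up to 0.197).

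Mmp13, the main interstitial collagenase of the mouse (chromosome 9, 7272514 to 7283333, plus strand), stood at 6.50, 11.1 and 11.3 TPM in PBS and at 5.43, 4.90 and 7.01 TPM in MSC-EV. PBS replicate 1 lay below MSC-EV replicate 3, so the groups overlapped. The log2 fold change was -0.63 (SE 0.192, 95% interval -1.06 to -0.20, adjusted p = 0.088). Without PBS replicate 1 it was -0.86 with an adjusted p of 0.00532, and the other 8 fits that left out 1 sample did not pass (-0.75 to -0.50, adjusted p up to 0.292).

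Mmp19, a secreted MMP of broad substrate range (chromosome 10, 128790910 to 128800827, plus strand), had the smallest ratio of highest to lowest sample of the 9 genes (1.56), with 12.7, 12.2 and 12.6 TPM in PBS and 11.8, 10.9 and 11.4 TPM in MSC-EV. The MSC-EV samples were all lower, but the difference was small at -0.13 (SE 0.106, 95% interval -0.36 to 0.11, adjusted p = 0.536). Its 3′ end overlaps Tmem198b on the opposite strand, which was at 7.98 to 11.6 TPM.

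Timp1, the inducible secreted inhibitor (chromosome X, 20870166 to 20874737, plus strand), was at 0.739, 0.466 and 0.847 TPM in PBS and at 1.09, 1.92 and 0.661 TPM in MSC-EV. The groups overlapped, and the log2 fold change of 0.37 (SE 0.224, 95% interval -0.14 to 0.87) did not pass (adjusted p = 0.375). It passed the filter through vesicle samples alone, since no PBS sample reached 1 TPM. The gene lies inside Syn1, on its opposite strand, and Syn1 was at 3.42 to 7.59 TPM.

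Timp3, the inhibitor that stays bound to the matrix (chromosome 10, 86300412 to 86349505, plus strand), was at 11.5, 8.97 and 11.4 TPM in PBS and at 8.16, 5.98 and 9.05 TPM in MSC-EV. These values overlapped as well, with a log2 fold change of -0.42 (SE 0.304, 95% interval -1.11 to 0.26, adjusted p = 0.458). It lies inside Syn3 on the opposite strand, but Syn3 did not exceed 0.0946 TPM.

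Adam8, a protease of myeloid cells that sheds surface receptors (chromosome 7, 139978932 to 139995207, minus strand), was at 232, 145 and 183 TPM in PBS and at 236, 249 and 282 TPM in MSC-EV. The lowest MSC-EV sample was barely above the highest PBS sample. The log2 fold change was 0.48 (SE 0.228, 95% interval -0.04 to 0.99, adjusted p = 0.252). Of the 8 genes tested, 5 had no overlap between MSC-EV and PBS (Timp2, Mmp14 and Adam8 higher, Mmp12 and Mmp19 lower), beside 26% of all genes tested (11.2% higher, 14.9% lower).

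**Figure D2:**
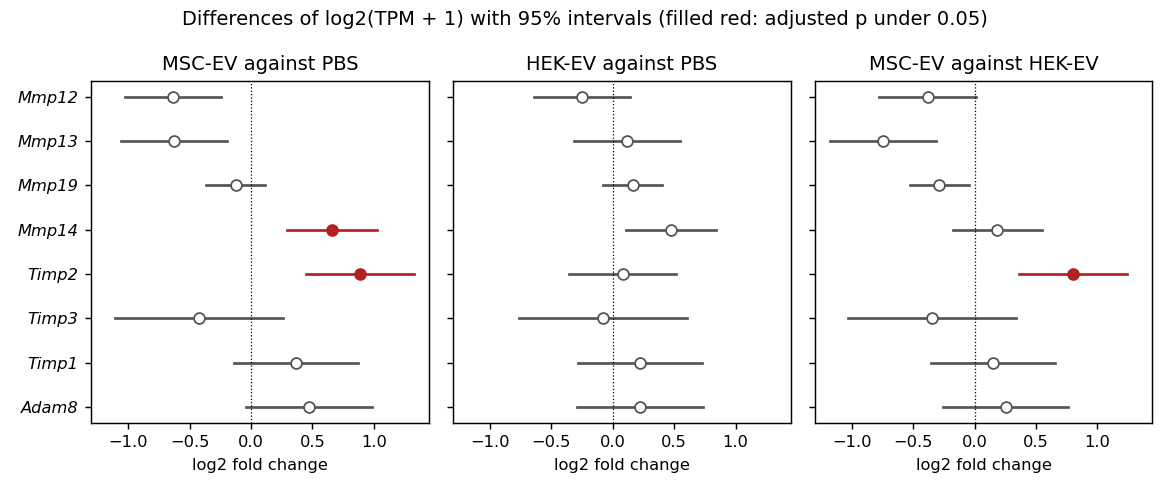
Log2 fold changes (differences of log2(TPM + 1)) of the 8 genes tested, in 3 comparisons; points are estimates, lines are 95% intervals, and filled red points have an adjusted p under 0.05. Timp2 passes in both comparisons of the MSC-EV group and Mmp14 in MSC-EV against PBS only.

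HEK-EV against PBS asks what SIRP vesicles from another cell source did. With limma, 0% of genes had an adjusted p under 0.05, and 495 of 13820 (3.58%) had an unadjusted p under 0.05. Accordingly 0 of the 8 genes was called, and 1 of them, Mmp14, had an unadjusted p under 0.05. Mmp14 was at 42.6, 44.9 and 49.8 TPM in the HEK-EV samples, all above the PBS maximum of 37.6 TPM. Its log2 fold change was 0.48 (SE 0.162, 95% interval 0.11 to 0.84, adjusted p = 0.999), a value that fails the adjustment. It was the only one of the 8 without overlap between these groups, beside 7.81% of all genes tested (5.51% higher, 2.29% lower). The log2 fold change was above 0 for 6 of the 8 and for 61% of all genes tested.

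Timp2 showed no such step, with 44.5, 52.1 and 43.6 TPM in HEK-EV, inside the range of the PBS samples. The difference was 0.08 (SE 0.195, 95% interval -0.36 to 0.52, adjusted p = 0.999). Mmp12 was at 50.9, 58.0 and 77.2 TPM in HEK-EV (-0.25, 95% interval -0.65 to 0.14) and Mmp13 at 10.6, 9.48 and 10.8 TPM (0.12, 95% interval -0.32 to 0.55). Both overlapped the PBS values. Mmp2 was at 0.403, 0.345 and 0.324 TPM, just above the PBS maximum of 0.313 TPM.

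HEK-EV replicate 3 held the highest value of its group, and of all 9 samples, for Adam8 (308 TPM), Mmp19 (17.0 TPM) and Timp3 (17.6 TPM). The other HEK-EV replicates, 1 and 2, held 163 and 195 TPM of Adam8, 13 and 12.6 TPM of Mmp19, and 6.02 and 9.05 TPM of Timp3. The log2 fold changes against PBS were 0.22 for Adam8, 0.16 for Mmp19 and -0.08 for Timp3, with intervals that include 0. Without HEK-EV replicate 3, Adam8 turned to -0.040. Timp1 was at 1.18, 0.587 and 1.15 TPM (0.22, 95% interval -0.28 to 0.73).

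MSC-EV against HEK-EV compares the vesicle sources directly, and it is also the test of whether their effects against PBS differ. Timp2 was the only 1 of the 8 genes past the threshold, beside 5.91% of all genes tested (1.51% higher, 4.4% lower), and 3 of the 8 had an unadjusted p under 0.05, beside 23.3%. Of all genes called, 209 of 817 were higher, against 239 of 436 on FPKM, 220 of 501 with median-of-ratios scaling and 316 of 694 with quantile normalization. The log2 fold change was above 0 for 4 of the 8 and for 46.2% of all genes tested. Every MSC-EV sample (71.9 to 91.1 TPM) exceeded every HEK-EV sample (43.6 to 52.1 TPM), with a log2 fold change of 0.80 (SE 0.195, 95% interval 0.37 to 1.24, adjusted p = 0.0447). When 1 sample was left out the difference was 0.73 to 0.90, and 7 of the 9 such fits lost the call (adjusted p up to 0.161). Those 7 were the fits without PBS replicate 2 or any 1 HEK-EV or MSC-EV sample. Without the 4 acinar libraries the difference was 0.94 with an adjusted p of 0.472.

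For Mmp14 the vesicle groups overlapped (MSC-EV replicate 3 at 39.7 TPM was below every HEK-EV sample) and the difference was 0.19 (95% interval -0.18 to 0.55, adjusted p = 0.546). Mmp13 had no overlap, with 4.90 to 7.01 TPM in MSC-EV against 9.48 to 10.8 TPM in HEK-EV. Its log2 fold change of -0.75 (SE 0.192, 95% interval -1.18 to -0.31) had an adjusted p of 0.0535, and of 0.00876 without PBS replicate 1, while the other 8 fits that left out 1 sample did not pass (adjusted p up to 0.17). Mmp19 was lower in every MSC-EV sample than in every HEK-EV sample (-0.29, SE 0.106, adjusted p = 0.142). In all, 3 of the 8 genes did not overlap, beside 30.1% of genes tested (12.6% higher, 17.5% lower). Mmp12 (-0.38), Timp3 (-0.34), Timp1 (0.15) and Adam8 (0.25) had overlapping groups and adjusted p from 0.225 to 0.749.

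Added together, transcripts of the 5 MMPs differed little between samples. They summed to 124 to 132 TPM in PBS, 118 to 155 TPM in HEK-EV and 110 to 128 TPM in MSC-EV. The 3 TIMPs summed to 47.4 to 75.7 TPM in PBS, 51.7 to 62.3 TPM in HEK-EV and 81.6 to 100.3 TPM in MSC-EV, most of it Timp2. The ratio of these 5 MMPs to these 3 TIMPs was 1.71, 2.61 and 2.78 in PBS, 2.27, 2.03 and 2.49 in HEK-EV and 1.16, 1.39 and 1.35 in MSC-EV. It leaves out the other secreted MMPs, mostly Mmp8 and Mmp9. Those summed to 194 to 290 TPM in PBS, 232 to 338 TPM in HEK-EV and 183 to 204 TPM in MSC-EV, more than the 5 in every sample. The MSC-EV samples thus had the 3 lowest ratios, with PBS replicate 1 next. Within the MMP sum the makeup differed: Mmp12 transcripts were 1.92 to 2.84 times those of Mmp14 in PBS, 1.19 to 1.55 times in HEK-EV and 0.588 to 1.30 times in MSC-EV. The ratio of Timp2 to Mmp14 overlapped between PBS (1.16 to 1.69) and MSC-EV (1.46 to 1.81) and was 0.875 to 1.16 in HEK-EV. These sums and ratios are descriptions with no test.

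**Figure D3:**
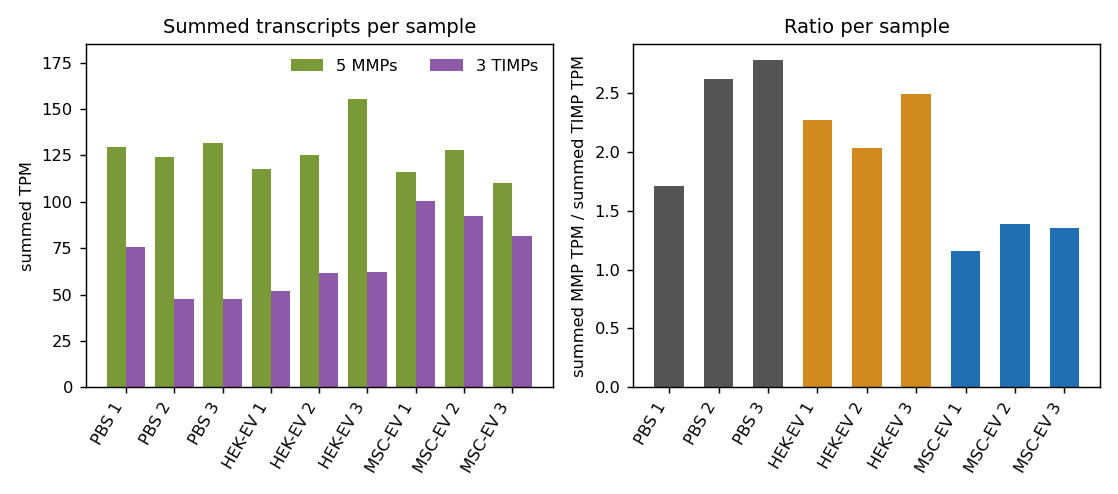
Left, summed TPM of the 5 MMP genes and the 3 TIMP genes in each sample (bars from 0); right, the ratio of these sums per sample, coloured by group. The MMP sums stay between 110 and 155 TPM, and the ratios of the MSC-EV samples (1.16 to 1.39) are the lowest of the 9.

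Mmp12 and Mmp13 are neighbours at the edge of a cluster of 10 MMP genes on chromosome 9 (7272514 to 7699585, 427.1 kb, build mm10 as in the tables). Of these 10 genes, 4 averaged at least 1 TPM: Mmp12, Mmp13, Mmp8 and Mmp27. They did not share a direction in MSC-EV against PBS. Mmp27, chosen after its values were seen, was at 16.5, 12.2 and 12.7 TPM in PBS and at 26.2, 21.6 and 19.1 TPM in MSC-EV, without overlap (0.65, SE 0.168, adjusted p = 0.0562). Mmp8, the neutrophil collagenase, overlapped between the groups (-0.33, adjusted p = 0.432). Among the other cluster genes, Mmp1a, Mmp1b and Mmp20 were listed at 0 in every sample and Mmp3, Mmp7 and Mmp10 did not exceed 0.359 TPM.

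The promoters of Mmp12 and Mmp13 are shown beside those of Timp2 and Mmp14 because these 4 genes had the largest differences in MSC-EV against PBS and opposite signs. Sequences are from RefSeq (GRCm38.p6, the assembly of mm10), 250 bases before the start and 5′ to 3′ on the gene's strand. Capitals mark TGANTCA, the core of sites for AP-1, a transcription factor of Fos and Jun proteins, and GGGCGG, the core of sites for Sp1, on either strand, and the motifs do not overlap each other. For Mmp12 RefSeq gives 2 starts. The downstream one, at 7347374, is printed and is the only one of the 2 with a marked motif. The gene coordinates above begin at the upstream one.
Mmp13 (chr9:7272264-7272513, plus strand): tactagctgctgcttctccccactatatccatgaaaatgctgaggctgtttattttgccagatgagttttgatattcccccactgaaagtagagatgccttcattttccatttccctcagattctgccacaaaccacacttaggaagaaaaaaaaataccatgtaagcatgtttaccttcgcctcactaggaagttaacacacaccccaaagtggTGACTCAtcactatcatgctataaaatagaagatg
Mmp12 (chr9:7347124-7347373, plus strand): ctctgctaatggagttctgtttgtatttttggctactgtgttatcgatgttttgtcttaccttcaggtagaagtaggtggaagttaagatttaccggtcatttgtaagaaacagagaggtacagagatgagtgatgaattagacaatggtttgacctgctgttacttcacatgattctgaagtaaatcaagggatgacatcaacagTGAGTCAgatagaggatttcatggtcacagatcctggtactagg
Timp2 (chr11:118355412-118355661, minus strand): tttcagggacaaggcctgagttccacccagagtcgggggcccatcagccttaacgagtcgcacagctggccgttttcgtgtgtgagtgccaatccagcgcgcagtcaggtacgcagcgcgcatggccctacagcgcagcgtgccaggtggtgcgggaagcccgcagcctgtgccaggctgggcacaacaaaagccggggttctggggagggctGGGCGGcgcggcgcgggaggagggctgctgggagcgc
Mmp14 (chr14:54431348-54431597, plus strand): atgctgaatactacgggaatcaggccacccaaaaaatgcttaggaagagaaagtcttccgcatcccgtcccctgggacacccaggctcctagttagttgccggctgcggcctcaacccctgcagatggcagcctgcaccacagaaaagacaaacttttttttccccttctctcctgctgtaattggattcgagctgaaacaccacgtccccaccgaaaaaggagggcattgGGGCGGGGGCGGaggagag

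TGANTCA occurred at -35 to -29 from the Mmp13 start, as TGACTCA, and at -44 to -38 from the printed Mmp12 start, as TGAGTCA. The other Mmp12 start had neither motif. No TGANTCA was found in the windows of Timp1, Timp2, Timp3, Mmp14 or Adam8, each of which held GGGCGG. In Mmp14 a pair of adjoining GGGCGG matches ran from -19 to -8, and in Timp2 there was 1 match at -37 to -32. Over all 32851 promoters in the table, 6.7% held TGANTCA and 32.7% held GGGCGG in the same 250 bases. The Mmp13 and Mmp12 windows had 40.4% and 39.6% G and C, those of Mmp14 and Timp2 55.2% and 68.0%, and the median of all promoters was 52.4%. Matches describe the letters only. Mmp2 and Mmp19 were not matched in that table.

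Several of the genes can be set beside transcripts that mark kinds of cells. The levels of Timp2 are set first beside a list of lipid-associated macrophage markers (9 genes such as Gpnmb, Trem2 and Apoe, none at 0), which summed to 11980 to 14030 TPM in PBS, 14050 to 15310 TPM in HEK-EV and 23190 to 26530 TPM in MSC-EV. In MSC-EV against PBS 7 of these 9 genes were called higher and 0 lower. Timp2, which is not in the list, equalled 0.293% to 0.343% of that sum in 8 samples and 0.453% in PBS replicate 1. Apoe was the largest member of that sum. It was lowest in PBS replicate 1 (4197 TPM), beside 6195 to 7588 TPM in HEK-EV. As for Timp2, PBS replicate 1 exceeded the other PBS and all HEK-EV samples for Gpnmb, Trem2, Spp1, Fabp5, Lgals3, Lpl and Ctsb. For Cd9 it did not. This list was not alone, since the hepatocyte and biliary sums were also higher in every MSC-EV sample than in all other samples. The lymphocyte sum (8 genes, 3 tested) overlapped between the groups. Its gene Nkg7 was called higher with MSC vesicles against PBS and HEK-EV (0.70 and 0.66, limma, adjusted p = 0.0424 and 0.0468). Its other tested genes, Ncr1 and Cd79a, did not pass. The dendritic cell sum (7 genes, none at 0) was 978 to 1386 TPM in PBS, 899 to 1358 TPM in HEK-EV and 1456 to 2070 TPM in MSC-EV, with 0 of the 7 called. Most of it was H2-Ab1 (821 to 1906 TPM), which B cells and macrophages also express, and against PBS the other 6 genes ranged from -0.14 for Xcr1 to 0.91 for Ccr7. The platelet sum (5 genes, none at 0 in every sample, 2 tested), nearly all of it Pf4, was 136 to 200 TPM in PBS, 131 to 189 TPM in HEK-EV and 255 to 351 TPM in MSC-EV, and Pf4 was called higher. Of the defining platelet genes, Gp9 was at 0 in 8 samples and Gp1bb did not exceed 0.188 TPM. Itga2b was lower in every MSC-EV sample (0.378 to 0.675 TPM) than in every PBS sample (0.766 to 1.16 TPM) and was not tested, and Ppbp was at -0.22 against PBS and did not pass. The part of these cells in the Timp2 result was not tested.

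Mmp13 is set beside markers of Ly6C-high monocytes, cells that enter the liver from blood (8 genes, none at 0). Their sum was 4945, 8696 and 8986 TPM in PBS replicates 1 to 3, 6042 to 8071 TPM in HEK-EV and 2856 to 3930 TPM in MSC-EV, and 4 of the 8 were called lower and 0 higher in MSC-EV against PBS. PBS replicate 1 was lowest in its group for this sum and for Mmp13. Mmp13, which is not in the list, equalled 0.126% to 0.131% of that sum in PBS, 0.133% to 0.163% in HEK-EV and 0.145% to 0.190% in MSC-EV. Mmp13 itself ranged 2.31-fold. The sum of Kupffer cell markers (7 genes, none at 0) was 2849 to 3481 TPM in PBS, 2044 to 3903 TPM in HEK-EV and 1720 to 2815 TPM in MSC-EV. The part of these cells in the Mmp12 and Mmp13 values was not tested.

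Timp3 is set beside markers of the liver's sinusoidal endothelium (9 genes such as Stab2 and Kdr, none at 0). HEK-EV replicate 3 had both the highest Timp3 (17.6 TPM) and the highest endothelial sum (515 TPM), and MSC-EV replicate 2 the lowest of each (5.98 and 146 TPM). The endothelial sums were 359 to 437 TPM in PBS, 232 to 515 TPM in HEK-EV and 146 to 287 TPM in MSC-EV, with 0 of the 9 genes called in any comparison. Timp3, which is not in the list, equalled 2.23% to 3.18% of that sum in PBS, 2.37% to 3.42% in HEK-EV and 3.15% to 4.08% in MSC-EV. Timp3 itself ranged 2.95-fold. The Kupffer cell sum had the same extremes, with 3903 TPM in HEK-EV replicate 3 and 1720 TPM in MSC-EV replicate 2. Endothelial cells are not expected among CD11b+ cells, and the part of either cell type in the Timp3 values was not tested.

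**Figure D4:**
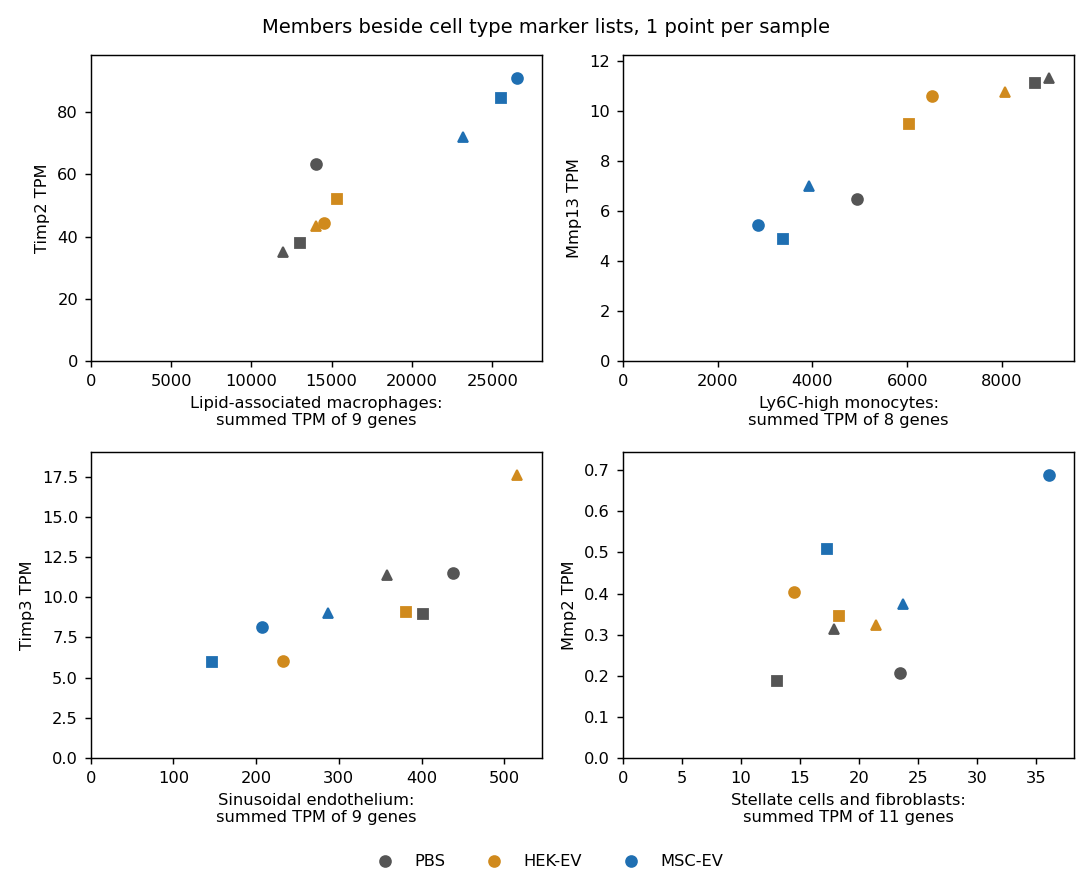
TPM of Timp2, Mmp13, Timp3 and Mmp2 (vertical axes, linear from 0) against the summed TPM of a cell type marker list (horizontal axes, linear from 0) in the 9 samples; colour gives the group, and circles, squares and triangles are replicates 1, 2 and 3. Timp2 is highest in the 3 MSC-EV samples, which have the highest marker sums. PBS replicate 1 (63.5 TPM) lies above the HEK-EV samples at a lower sum. Apoe, the largest member of that sum, was lowest in this sample (4197 TPM). Mmp13 and Timp3 are mostly higher at higher sums, with exceptions, and the Mmp2 points scatter.

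Genes with a pattern most like that of Timp2 over the 9 samples, among 9622 candidates, were Igf1, which encodes a growth factor, Gpr157, a receptor-like protein, and Fblim1, an adaptor protein of cell adhesion. Their centred log2 values differed from those of Timp2 by 0.0755, 0.0868 and 0.0917 (root mean square), where Timp2's own spread was 0.465. For Mmp14 the closest were BC064078, Ankrd33b and Fcrl1, at 0.176 to 0.181 with an own spread of 0.339, so no gene followed Mmp14 as closely. Igf1 had log2 fold changes of 0.97 against PBS and 0.86 against HEK-EV in the MSC-EV group.

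The other secreted MMPs held 4 genes that passed the filter out of 12. In each of the 3 comparisons 0 of the 4 was called, with median log2 fold changes of -0.21 in MSC-EV against PBS, 0.12 in HEK-EV against PBS and -0.32 in MSC-EV against HEK-EV. The most abundant was Mmp9, the gelatinase stored in neutrophil granules. It was at 95.9, 122 and 157 TPM in PBS, 135, 126 and 165 TPM in HEK-EV and 88.6, 97.0 and 94.5 TPM in MSC-EV. MSC-EV was below HEK-EV in every sample (-0.59, SE 0.161, adjusted p = 0.0624). Neutrophil markers without Mmp8 and Mmp9 summed to 2941 to 5460 TPM in PBS, 4909 to 6718 TPM in HEK-EV and 2877 to 3688 TPM in MSC-EV, with S100a8 and S100a9 the bulk of it. Of the 11 neutrophil genes, 1 was called higher and 0 lower against PBS, and 1 higher and 1 lower against HEK-EV. The higher one was Ltf, a granule protein, at 2.88 to 2.99 TPM in PBS, 1.45 to 2.84 TPM in HEK-EV and 4.76 to 7.43 TPM in MSC-EV (0.87 and 1.197, adjusted p = 0.0348 and 0.0205). The granule genes Camp (0.73 and 0.98) and Ngp (1.01 and 1.02) had positive values that did not pass, unlike the list's sum. The lower one was Csf3r, a growth factor receptor (-0.35, adjusted p = 0.0402), and these marker genes, Itgam, Ptprc and Cd68 included, were chosen after their values were seen. The part of neutrophils in the Mmp9 values was not tested. Of 6 other membrane-bound MMPs only Mmp25, at 3.15 to 7.06 TPM, passed the filter, and it was not called.

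Among 9 other inhibitors of MMPs and of plasmin, 4 were tested and 0 called in any comparison. Timp4 was listed at 0 in every sample and Reck, a membrane-anchored MMP inhibitor, stayed under 0.4 TPM. The most abundant by mean over all samples was Pzp, a broad protease trap made by hepatocytes. It was at 3.11 to 5.10 TPM in PBS, 2.75 to 6.41 TPM in HEK-EV and 7.48 to 10.2 TPM in MSC-EV. Its log2 fold change in MSC-EV against PBS was 0.88 (SE 0.25, limma, adjusted p = 0.0744). In HEK-EV the mean of Serpinb2, another inhibitor of the list, was higher (5.12 against 4.31 TPM). Hepatocyte markers (11 genes, none at 0) summed to 417 to 497 TPM in PBS, 349 to 535 TPM in HEK-EV and 686 to 809 TPM in MSC-EV, and their part was not tested.

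Of 10 activators, docking and clearance proteins 9 were tested, and in MSC-EV against PBS 1 was higher, 1 lower and 7 did not pass, with a median of 0.07. Cd44, a hyaluronan receptor that also docks MMPs at the cell surface, fell from 349 to 394 TPM in PBS to 277 to 313 TPM in MSC-EV (-0.34, SE 0.0656, adjusted p = 0.0286). Against HEK-EV (402 to 432 TPM) its difference was -0.51 (adjusted p = 0.0205). St14, an epithelial membrane serine protease, rose from 0.872 to 1.24 TPM to 1.91 to 2.22 TPM (0.59, adjusted p = 0.0487). Biliary epithelial markers (10 genes, none at 0) summed to 19.1 to 25.5 TPM in PBS and 38.3 to 55.5 TPM in MSC-EV, where 6 of 9 tested were called higher. Of these 6, Sox9 and Cldn7 reached 1 TPM in MSC-EV samples alone and so entered the test through the group where they are high. The part of these cells in the St14 value was not tested. Plg, the hepatocyte-made precursor of plasmin, was higher in MSC-EV than in HEK-EV (0.86, SE 0.180, adjusted p = 0.03). Lrp1, the receptor that clears MMPs and their complexes, had the highest mean of the list over all samples. Cd44 exceeded it in PBS replicate 3 and in HEK-EV replicates 1 and 2. The log2 fold change of Lrp1 with HEK vesicles was 0.14 (0 of the 9 passed there).

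ADAM proteases other than Adam8 had 8 of 12 genes tested and ADAMTS proteases 4 of 19, and 0 were called in any comparison. In MSC-EV against PBS their medians were -0.07 and -0.34. Adam10, a general sheddase, was the most abundant ADAM at 179 to 241 TPM and differed by -0.03 (95% interval -0.23 to 0.18), and Adamts10, a protease of microfibrils, led the ADAMTS genes at 20.8 to 25.6 TPM. Matrix proteins, the substrates of MMPs, had 13 of 22 genes tested. In MSC-EV against PBS 1 was higher, 1 lower and 11 did not pass, with a median of 0.01. Vcan, a proteoglycan, fell (-1.42, SE 0.261, adjusted p = 0.0251), from 40.8 to 59.1 TPM in PBS to 16.6 to 23.1 TPM in MSC-EV. The gene called higher was Eln, which encodes elastin, the substrate of Mmp12, at 0.237 to 0.507 TPM in PBS and 1.22 to 1.73 TPM in MSC-EV (0.89, SE 0.205, adjusted p = 0.0418). Of the other 6 samples only HEK-EV replicate 3 reached 1 TPM of it, so Eln entered the test through the group where it is high. In MSC-EV against HEK-EV 2 were lower and 0 higher, Vcan (-1.63, adjusted p = 0.0207) and Fn1, which encodes fibronectin (-1.02, SE 0.214, adjusted p = 0.0308). Vcan and Fn1 also belong to the Ly6C-high monocyte list above.

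**Figure D5:**
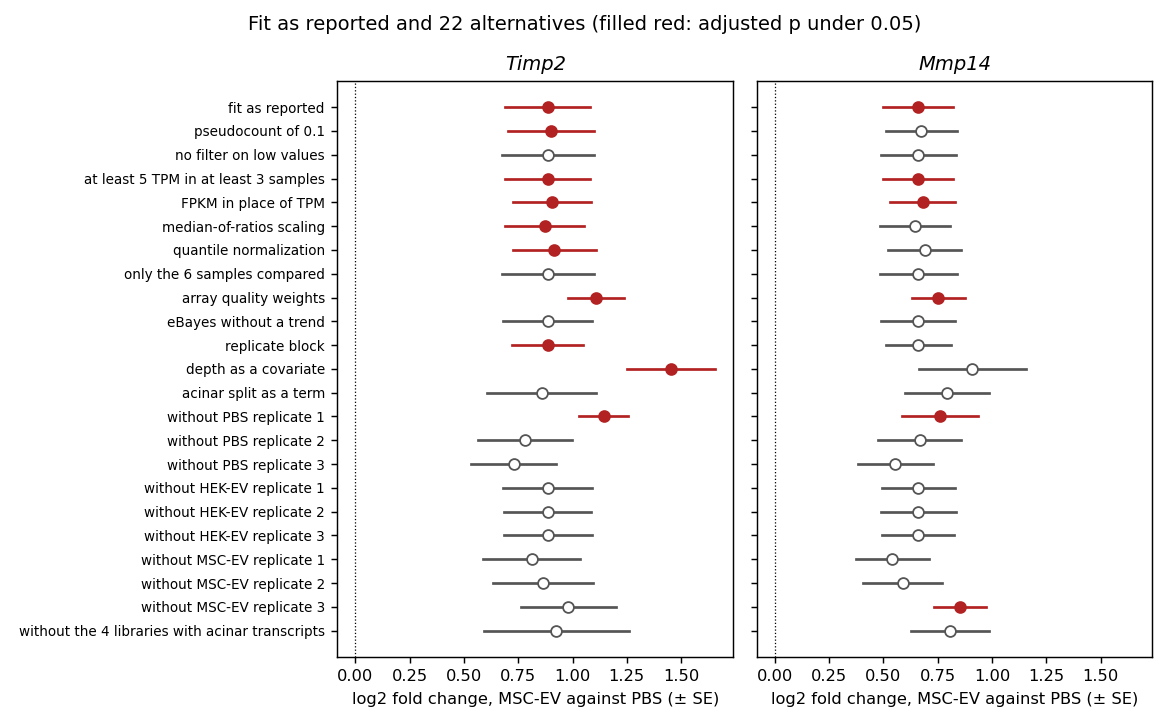
Log2 fold changes of Timp2 and Mmp14 in MSC-EV against PBS in the fit as reported and in 22 alternative fits; points are estimates, lines are ± 1 SE, and filled red points have an adjusted p under 0.05. Estimates stay between 0.73 and 1.45 for Timp2 and between 0.54 and 0.91 for Mmp14, while the adjusted p crosses the threshold in many fits.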

How the data were processed

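RNA of CD11b+ liver cells was extracted with Trizol and sequenced from TruSeq Stranded mRNA libraries, per the labels' protocols. The submitters' processing notes name HISAT2 2.1.0, StringTie and the build mm10, with no annotation or strand setting. Per the file headers, 1 table per sample gave TPM, FPKM and coverage. The deposited TPM are scaled to gene length and to 1000000 per sample, the deposited FPKM to length and sequenced fragments, and the deposited coverage is signal per base of a gene. Gene names were blank, so gene IDs were matched to RefSeq (GRCm38.p6), where 45679 of 45777 had a symbol, and rows of the same ID were summed. Where genes overlap, reads may not be separable. TPM were tested as log2(TPM + 1) with a minimum of 1 TPM in at least 3 samples (13820 genes), using limma 3.58.1 in R 4.3.3 with a trend, all 9 samples in 1 fit, without covariates. P-values were adjusted over all genes tested by the Benjamini-Hochberg method, two-sided, with a threshold of 0.05. An exact permutation test of 3 against 3 cannot go below p = 0.1 and was not run. The fit was also run on simulated data, with independent noise for each gene and planted changes larger than those of Timp2 and Mmp14. Such data lack the differences that many genes of a library share, so that run checks the code and not the calls reported here. The genes, lists and tests were chosen with earlier results of these data known. All 9 genes were to be named. Of the pathway lists, up to 4 genes past the threshold were named, else the most abundant one, and for each of the 9 genes that passed, the 3 of smallest root mean square difference, with a mean of at least 5 TPM. Alternatives were another pseudocount, filters, FPKM, scalings, sample sets, weights, no trend, a replicate block, depth and acinar terms, and leaving out each sample. Leaving out the 4 acinar libraries was added after the data were seen. Python 3.11.15 was used for the other steps.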

Additional observations from a re-analysis of the deposited data

Results flagged for a closer look

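Timp2 differed between the vesicle sources. Its log2 fold change against PBS was 0.89 in the MSC-EV group and 0.08 in the HEK-EV group, and the test of the difference, which equals MSC-EV against HEK-EV, gave 0.80 (limma, adjusted p = 0.0447). All 3 MSC-EV samples were above all 3 HEK-EV samples. Both effects share the PBS samples. Groups of 3 are too small for the check of single samples that stand apart.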

How the results depend on the processing

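Over 22 alternatives, Timp2 and Mmp14 kept their sign in MSC-EV against PBS, as did Timp2 in MSC-EV against HEK-EV, and the calls were kept in 9, 5 and 11 of them. Without the filter on low values, without a trend and with a term for acinar transcripts, the adjusted p was 0.0896, 0.0572 and 0.154 for Timp2 against PBS and 0.108, 0.0723 and 0.124 for Mmp14.

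The number of genes past the threshold moved widely. In MSC-EV against PBS it was 706, and it was 361 without the filter, 77 with only the 6 samples compared, 4163 with array quality weights, 401 without a trend, 1340 with depth as a covariate, 21 with the acinar split as a term and 0 without the 4 acinar libraries. In MSC-EV against HEK-EV it was 817, and in the same order without the 6-sample and split fits 387, 2081, 497, 1446 and 0, with 436 on FPKM and 501 with median-of-ratios scaling. In HEK-EV against PBS it was 4 without the filter. Leaving out 1 sample gave 5 to 1861, 0 to 1369 and 0 to 2 genes. In the fit without the acinar libraries each vesicle group has 1 sample, assumed to vary like the others.

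The replicate numbers are shared by the groups, but 0 of 9 same-numbered pairs had a correlation of deviations over 0.1 (-0.50 to 0.06). The highest value of any pair was 0.55, for HEK-EV replicate 2 and MSC-EV replicate 3, both with acinar transcripts. Such shared differences can mask a pairing, so this check saw none but cannot exclude one. With a replicate block 404 and 448 genes passed in the comparisons of MSC-EV, Mmp14 lost its call (adjusted p = 0.0623) and Mmp12 gained one (0.047). Calls were also gained with array quality weights, by Mmp12, Mmp13 and Adam8 against PBS (adjusted p = 0.00868, 0.00172 and 0.0165) and by Mmp13 against HEK-EV (0.0099), and with depth as a covariate by Mmp13 (0.0299 and 0.0136). Mmp13 against HEK-EV also passed with only the 6 samples compared (0.0192) and with a minimum of 5 TPM (0.0467).

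Of 522 values of the 8 genes, 18 changed sign, and 0 of these had an adjusted p under 0.05. In HEK-EV against PBS these were Mmp12 with the acinar split (0.017) and without the acinar libraries (0.080), Mmp13 with weights (-0.10) and depth (-0.15), Timp2 without the acinar libraries (-0.014), and Timp3 with weights (0.030), depth (0.00309), the split (0.15) and without the acinar libraries (0.69). Adam8 without the acinar libraries was -0.31 in MSC-EV against HEK-EV. Leaving out 1 sample turned Adam8 (-0.040 to 0.42), Mmp13 (-0.12 to 0.24), Timp2 (-0.077 to 0.34) and Timp3 (-0.46 to 0.24) in HEK-EV against PBS, and Timp1 (-0.069 to 0.34) and Timp3 (-0.67 to 0.038) in MSC-EV against HEK-EV. The causes were not tested. Scalings moved the median of all genes by under 0.1. Depth in reads is unknown, so genes near 1 TPM such as Timp1 and Mmp2 carry an unmeasured counting error.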

Other observations

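Serpinb2, which encodes an inhibitor of plasminogen activators that macrophages make, differed widely between samples of a group. It was at 8.51 and 5.59 TPM in HEK-EV replicates 1 and 2 and at 5.08 TPM in MSC-EV replicate 2, and at 0.377 to 1.92 TPM in the other 6 samples. Its log2 fold change in HEK-EV against PBS was 1.54 (SE 0.642, limma, adjusted p = 0.999). It was chosen after its values were seen.

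Adam19, a membrane protease, was higher in every HEK-EV sample (8.96, 10.6 and 14.7 TPM) than in every PBS sample (6.72 to 7.73 TPM), with a log2 fold change of 0.58 (SE 0.151, limma, adjusted p = 0.999) that fails the adjustment. It was chosen after its values were seen.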
